A study of Mus musculus with 24 samples.

Results

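Boundary cap cells are groups of neural crest derived cells that sit where the spinal roots enter and leave the spinal cord. They hold motor neuron cell bodies inside the cord, guide incoming sensory axons, and give rise to glia of the roots and to part of the neurons and satellite glia of the dorsal root ganglia. A set of 5 of their genes were followed here: Prss56, a trypsin-like serine protease used to trace these cells, Npr3, the clearance receptor that takes up natriuretic peptides, Wif1, a secreted protein that binds and blocks Wnt ligands, Hey2, a basic helix-loop-helix repressor downstream of Notch receptors, and Cdh7, a type II cadherin of cell adhesion. These 5 genes, of 37074 gene names in the scanner files, were chosen by name, and Prss56 was selected on its difference between the roots at P0 in these same arrays.

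RNA was measured on 24 one-colour arrays of spinal nerve roots from C57BL/6 mice of both sexes, with no treatment and no altered allele in any group. Efferent nerve fibres (EN, the ventral root) and afferent nerve fibres (AN, the dorsal root) of segments L4-L6 were taken on the day of birth (P0) and at 1, 3 and 5 weeks (1 W, 3 W, 5 W), which gave 8 groups of 3 arrays. The roots were collected whole, with their glia, fibroblasts and vessels, and the labels name 8 collection tubes without tying an array to an animal. The methods speak of 3 independent experiments per group, without saying which animals each used, so p values measure the spread between arrays, which may be technical. In a bulk root, fewer cells that express a gene and less RNA per cell cannot be told apart. Which cells gave the signal of each gene, boundary cap cells or others, was not tested.

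Array medians ranged from 45.4 to 191 in signal and from 23 to 46 in local background, and 55.1% to 71.7% of gene probes were well above background. Levels are log2 normalized signals, which order the groups of 1 probe and say nothing of 1 gene against another. Arrays of a group correlated with each other at a mean r of 0.962 to 0.993. The lowest value was that of AN replicate 3 at 3 W, which held the highest level of dorsal root ganglion neuron markers of its group. A difference was called at an adjusted p below 0.05 in limma's fit over 36398 probes with a fold change over 2. Differences of Prss56 that involve P0 are given with no test, since they chose the gene.

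The promoters of Hey2 and Wif1 are shown because their windows lie outside the annotated gene and hold motifs of factors tied to boundary caps or to the genes' own pathways. They are the 250 bases before the start in RefSeq's annotation of GRCm38.p6, at chr10:30842784-30843033 on the minus strand and chr10:121033754-121034003 on the plus strand. Capitals mark matches on either strand to GCGNGGGCG, the motif of the EGR factors to which Egr2 belongs, to GTGGGAA, the motif of RBPJ that acts with Notch, to ATCAAAG, the TCF/LEF motif of Wnt signalling, or to the E-box CACGTG.
Hey2: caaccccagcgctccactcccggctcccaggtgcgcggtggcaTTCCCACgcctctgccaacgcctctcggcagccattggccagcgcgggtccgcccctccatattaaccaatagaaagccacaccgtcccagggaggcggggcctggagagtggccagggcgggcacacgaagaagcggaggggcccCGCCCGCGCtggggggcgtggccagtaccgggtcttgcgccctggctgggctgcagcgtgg
Wif1: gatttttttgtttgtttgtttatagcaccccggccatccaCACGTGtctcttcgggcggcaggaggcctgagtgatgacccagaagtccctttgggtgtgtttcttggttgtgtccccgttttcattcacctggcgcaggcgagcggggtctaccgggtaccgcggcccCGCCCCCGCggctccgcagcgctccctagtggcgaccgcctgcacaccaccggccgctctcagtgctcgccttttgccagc
In the Hey2 window the RBPJ match began 207 bases and the EGR match 61 bases before the start. In the Wif1 window the E-box match began 210 bases and the EGR match 81 bases before it. The marked matches did not overlap. Among 32851 promoter windows of that length, 4.7% held an EGR match, 5.42% an RBPJ match, 3.21% a TCF/LEF match and 6.02% the E-box. The windows of Prss56 and Npr3 held no match. Of the 3 windows of Cdh7, 1 held an RBPJ match and another 2 EGR matches.

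Prss56 had its highest signal in afferent fibres at P0 and was at background in both roots from 3 W on. Its probe lies at chr1:89084827-89084886 on the plus strand of mm9, the build of the files. At P0 the signals were 9.76, 10.97 and 10.07 in AN against 5.24, 6.56 and 7.81 in EN. At 1 W they were 6.99, 6.26 and 7.40 in AN, while the 3 EN arrays, at 3.13, 2.52 and 3.79, were not above background. The AN arrays thus lay above all EN arrays at both ages, though the P0 values chose the gene. At 3 W the AN arrays read 3.05, 3.31 and 3.55 and the EN arrays 2.53, 2.53 and 2.52, and at 5 W they read 3.19, 3.93 and 2.69 against 2.53, 2.55 and 3.69. No array at 3 W or 5 W was above background.

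**Figure D1:**
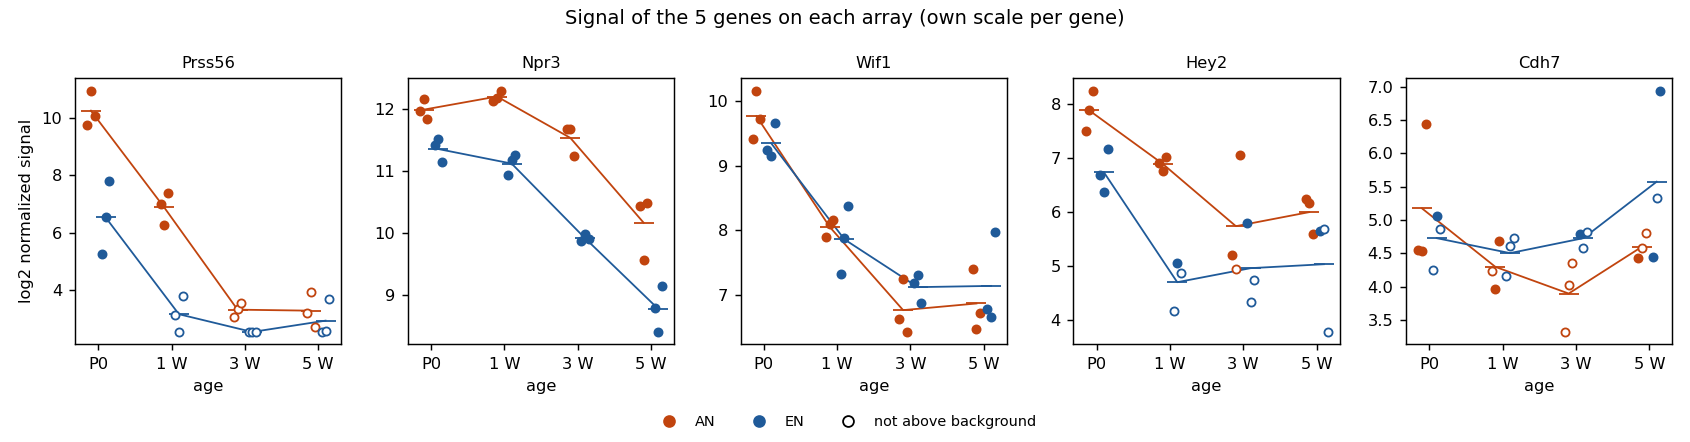
Log2 normalized signal of each gene's probe on every array against age, for afferent (AN, orange) and efferent (EN, blue) fibres, with horizontal ticks at the mean of 3 arrays and open points for arrays not above background. Prss56 starts at a mean of 10.27 in AN and 6.54 in EN at P0 and ends in open points, while Npr3 remains measurable in both roots at 5 W.

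The order of the 8 group means of Prss56 was P0 AN at 10.27 ± 0.63 (SD), 1 W AN at 6.88 ± 0.58 and P0 EN at 6.54 ± 1.28, followed by the 5 groups at background between 2.53 and 3.31. The gap was 3.38 from P0 AN to 1 W AN and 0.34 from 1 W AN to P0 EN. Both involve the P0 values that chose the gene, so neither is set against the SDs. At P0 the signal was 13.3-fold higher in AN than in EN, a log2 difference of 3.73 that chose the gene. By replicate number the P0 differences were 4.52, 4.41 and 2.26, the last being the pair with the brightest EN array.

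At 1 W Prss56 was at least 4.00-fold higher in AN than in EN (log2 difference of the measured signals 3.73, SE 0.52, adjusted p = 0.000752 in limma's fit). With normexp background correction, whose offset draws dim signals together, the log2 difference was 1.32 and still called (adjusted p = 0.0118). The 3 pairs gave 3.86, 3.74 and 3.60. At 3 W the difference was 0.78 (95% interval -0.31 to 1.87, adjusted p = 0.452 in limma's fit) and at 5 W 0.35 (-0.74 to 1.44, adjusted p = 0.764), both between signals at background. From 1 W to 5 W Prss56 fell at least 5.24-fold in AN (log2 difference -3.61, SE 0.52, adjusted p = 3.16e-05 in limma's fit), and with normexp the log2 difference was -1.20 (adjusted p = 0.00278). On the quantile normalized scale the fall was 3.07 and 3.46 on the 2 slides that held AN arrays of both ages. In EN, at background at both ages, the same difference was -0.23 (95% interval -1.32 to 0.87).

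The AN-EN difference of Prss56 at 5 W minus that at 1 W was a contrast chosen after seeing the data. Of its 4 groups 3 were at background, so its log2 value, -3.39, is set in part by the detection limit and is not a measured size. It was not called (adjusted p = 0.0793 in limma's fit, against 0.148% of all probes called). The adjusted p was 0.0474 with the replicate block, 0.0258 with pairs within an age as the block, 0.0215 with the slide as a block and 0.3 with normexp.

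**Figure D2:**
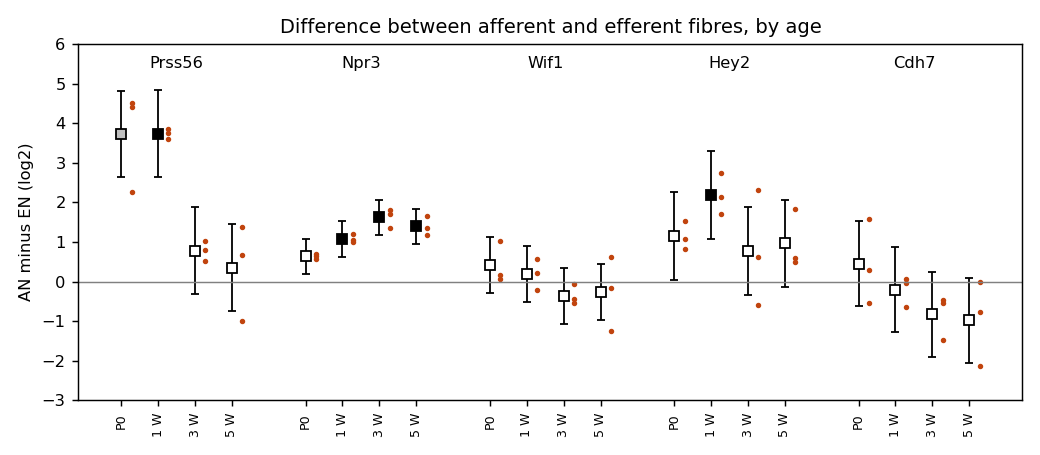
Log2 difference between AN and EN at each age for the 5 genes, with squares and bars for the fitted difference and its 95% interval and small points for the 3 pairs of arrays of the same number. Filled squares were called, open squares were not, and the grey square of Prss56 at P0 was not tested; the called values are 3.73 for Prss56 at 1 W, 1.08, 1.62 and 1.39 for Npr3 at 1 W, 3 W and 5 W, and 2.19 for Hey2 at 1 W.

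Markers of dorsal root ganglion neurons were higher in AN at 1 W. At that age 10 of 13 tested markers were called, against 2.41% of all probes, among them Avil by 5.33 and Calca by 5.36 on the log2 scale, and the summed signal of the 14 listed was 95500 to 112000 in AN and 14300 to 38900 in EN. At P0 none of the 13 was called and the sums overlapped, at 46100 to 128000 in AN and 55500 to 66400 in EN. At 3 W 2 of 13 were called, against 2.24% of all probes, with sums of 37500 to 276000 in AN and 31600 to 46900 in EN. At 5 W 1 of 13 was called, against 2.51%, with sums of 38100 to 65000 and 17900 to 35100, and the mean of the list was 0.53 lower in AN in 1 of the 3 pairs (log2 -0.53). Scn9a was above background on no array of P0 EN, 1 W EN, 3 W EN, 5 W AN and 5 W EN, and Isl1 on none of 3 W EN and 5 W EN. The array with the highest marker level, AN replicate 3 at 3 W, read 3.55 for Prss56, against 3.05 and 3.31 in the other AN arrays of that age. None of these was above background, so they do not bear on P0 or 1 W. The part of these neurons in the 1 W differences of Prss56, Npr3 and Hey2 was not tested.

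Among satellite glia markers, 3 of 5 were higher in AN at 1 W and at 3 W and 4 of 5 at 5 W, and none at P0, with sums of 44300 to 57000 in AN and 23500 to 26500 in EN at 1 W. Of 12 markers of Schwann cell precursors and immature Schwann cells, 3, 6 and 5 were higher in AN at 1 W, 3 W and 5 W and none at P0. Their P0 sums, in which bright genes weigh most, overlapped, at 192000 to 213000 in AN and 197000 to 207000 in EN. The mean log2 signal of the list at P0 did not, at 13.01 to 13.30 per array in AN and 12.81 to 12.93 in EN. By pair AN was 0.10 to 0.37 higher. Fabp7 is on both this list and that of satellite glia and was counted in each. Of 10 genes of myelinating Schwann cells, Mbp, Ncmap and Drp2 were lower in AN at P0, with sums over the list of 557000 to 723000 in AN and 844000 to 977000 in EN, and none was called later. No meningeal fibroblast marker of 7 was called at P0, with sums of 124000 to 176000 in AN and 158000 to 202000 in EN, and Dpp4 alone was called later, lower in AN at 1 W. Of 8 endothelial and 8 mural markers none was called between the roots at any age. Of 7 endoneurial fibroblast markers, Cxcl14 alone was called, higher in AN at 5 W. Of 6 tested motor neuron markers 3 were higher in AN at 1 W, namely Isl2, Ret and Prph, which sensory neurons also use. Chat, Slc18a3 and Slc5a7 were not called between the roots at any age. Mnx1, the defining factor of motor neurons, was above background in no group. Of 8 astrocyte markers 1 was lower in AN at P0, 3 were higher and 1 lower at 1 W, and 3 were higher at 5 W. Of 8 oligodendrocyte markers 2 were higher in AN at 1 W and 2 at 5 W, and none was called at P0. The part of these cells in the gene differences was not tested. Of all probes, 0.0714% were called higher in AN and 0.256% lower at P0, and 2.41% and 0.387% at 1 W. The higher and lower shares were 2.24% and 0.89% at 3 W, and 2.51% and 0.832% at 5 W.

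**Figure D3:**
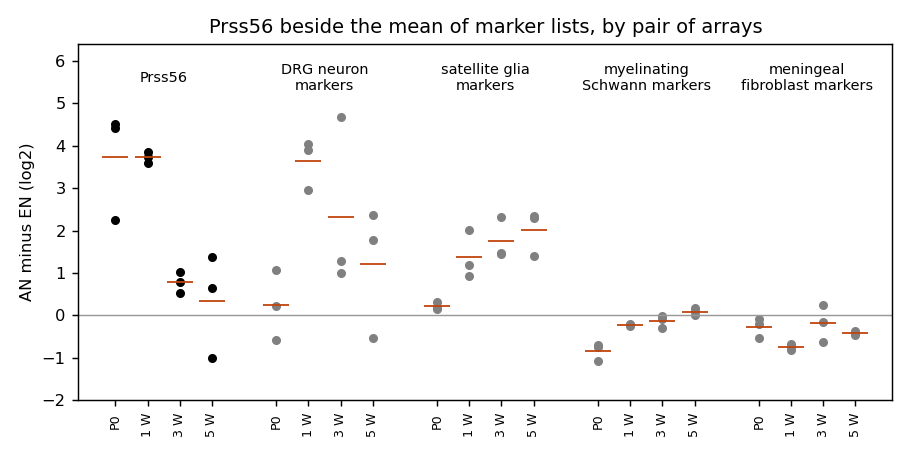
Log2 difference between AN and EN in each pair of arrays of the same number (points) with the mean of 3 pairs (orange ticks), for Prss56 and for the mean of 4 lists of marker genes, by age. At P0 Prss56 differed by 2.26 to 4.52, the difference that chose the gene, so it cannot be weighed against the lists. The mean of dorsal root ganglion (DRG) neuron markers differed by -0.57 to 1.07 at P0. At 1 W Prss56 and the mean of these markers were both higher in AN in all pairs.

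Over the 24 arrays, the genes whose signal was most like that of Prss56 were Ugdh (Pearson r = 0.938), Cse1l (0.935), Ndc1 (0.929), Ccdc80 (0.926), Cenpq (0.925), Ptpro (0.924), Mcm4 (0.922), Exosc8 (0.921), Pcdh10 (0.918) and Nap1l1 (0.914). Cse1l, Ndc1, Cenpq and Mcm4 serve nuclear transport, the nuclear pore, the kinetochore and DNA replication, and no theme was tested over the list. The arrays share age and slide, the P0 arrays that chose Prss56 enter each r, and Prss56 itself was above background in no group other than the P0 ones and 1 W AN. Among the other members of the set, Wif1 correlated with Prss56 at r = 0.853, Hey2 at 0.81, Npr3 at 0.654 and Cdh7 at 0.173.

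The other boundary cap genes were not called between the roots at P0. Egr2, the zinc-finger factor that also drives myelination, differed between AN and EN by -0.56 at P0 and rose in AN by 1.23 from P0 to 5 W. Sema6a, a transmembrane semaphorin, differed by 0.26 at P0 and fell by 2.33 in AN and 1.92 in EN from P0 to 5 W. Ntn5, a netrin of boundary cap cells, differed by 0.79 at P0, which was not called, and was 1.38 higher in AN at 5 W, which was called.

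Npr3 was called higher in afferent than in efferent fibres at every age after P0, with a smaller difference at P0 that was not called, and fell in both roots. Its probe lies at chr15:11769666-11769725 on the minus strand of mm9. At P0 the signals were 11.98, 12.16 and 11.85 in AN and 11.42, 11.52 and 11.15 in EN. At 1 W they were 12.14, 12.18 and 12.31 in AN and 10.94, 11.18 and 11.26 in EN. The groups did not overlap at either age. At 3 W the AN arrays read 11.69, 11.68 and 11.25 and the EN arrays 9.88, 9.99 and 9.90. At 5 W they read 10.44, 9.58 and 10.50 against 8.79, 8.41 and 9.15, again with every AN array above every EN array.

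The difference of Npr3 between AN and EN was 0.64 on the log2 scale at P0 (95% interval 0.18 to 1.09, adjusted p = 0.291 in limma's fit), which was not called. A limma fit with pairs within an age as the block gave an adjusted p of 0.0118 at P0, with the fold change still under 2. In the main fit the difference was 1.08 at 1 W (SE 0.22, adjusted p = 0.00719), 1.62 at 3 W (adjusted p = 0.000164) and 1.39 at 5 W (adjusted p = 0.000544), each higher in 3 of 3 pairs. Without EN replicate 1 the 1 W value was 0.99 (adjusted p = 0.0535), and without AN replicate 3, the array that stood apart, the 3 W value was 1.76. The 5 W call was lost when only the arrays of that age entered the fit (adjusted p = 0.177). The growth of the difference since P0, 0.98 at 3 W (95% interval 0.34 to 1.62), did not pass (adjusted p = 0.205 in limma's fit), nor did that at 1 W, 0.45, or at 5 W, 0.76. With pairs within an age as the block the adjusted p was 0.0109 at 3 W and 0.0208 at 5 W, with fold changes still under 2, and with array quality weights the 3 W value was 1.11 and was called. No tested gene of the 5 passed these contrasts, in which 0.0632%, 0.53% and 0.948% of all probes were called at 1 W, 3 W and 5 W.

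The fall of Npr3 from P0 passed the test at 3 W and 5 W in EN and at 5 W in AN. In EN it fell by 1.44 from P0 to 3 W (adjusted p = 2.02e-05 in limma's fit) and by 2.58, or 5.98-fold, to 5 W (adjusted p = 1.28e-08). In AN the change from P0 was -0.46 at 3 W (adjusted p = 0.0844), which missed the threshold, and it fell by 1.82, or 3.54-fold, to 5 W (adjusted p = 1.08e-06). No slide held both P0 and 3 W arrays, so the 3 W values also compare slides. With the slide as a block the 3 W value was -2.10 in EN and -1.11 in AN, both called. From 1 W to 5 W the change was -2.04 in AN and -2.35 in EN, both called. The order of means ran from 1 W AN at 12.21 ± 0.09 (SD), P0 AN at 11.997 ± 0.16, 3 W AN at 11.54 ± 0.25, P0 EN at 11.36 ± 0.19 and 1 W EN at 11.13 ± 0.17 to 5 W AN at 10.17 ± 0.52, 3 W EN at 9.92 ± 0.06 and 5 W EN at 8.78 ± 0.37. The neighbours that differed by more than the sum of their SDs were P0 AN and 3 W AN, 1 W EN and 5 W AN, and 3 W EN and 5 W EN.

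A second Npr3 probe on the same RefSeq transcript, at chr15:11772118-11772177, followed the first with r = 0.913 over 24 arrays. It gave AN-EN differences of 0.86, 1.21, 1.42 and 0.83 from P0 to 5 W, of which that at 3 W was called. The remaining probe, upstream at chr15:11832733-11832792 and designed on another cDNA, stayed between 4.14 and 6.03, had r = 0.0395 with the first, and gave -0.80 at 1 W and -0.26 at 5 W, neither called.

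In the natriuretic peptide system, 9 of 10 listed genes, Npr3 included, were tested, with Npr1, a guanylyl cyclase receptor, not above background in any full group. Npr3 was the only one of the 9 called higher in AN at 1 W and at 3 W. Nppc, the C-type peptide precursor, was 1.60 higher in AN at 5 W and fell by 2.06 in EN from P0 to 5 W. Corin, the protease that cuts pro-ANP, was lower in AN by 1.42 at 3 W and 1.39 at 5 W (log2 -1.42 and -1.39). Prkg2, a cGMP-dependent kinase, fell by 2.55 in AN and by 4.09 in EN from P0 to 5 W, and Nppb, the B-type peptide precursor, rose by 1.97 in AN and at least 2.95-fold in EN. Npr2, the receptor of the C-type peptide, changed by 0.23 and 0.43 and was not called. The median change to 5 W over the 9, Npr3 among them, was 0.03 in AN and -0.53 in EN, against 0.03 and 0.04 over all probes.

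Genes most like Npr3 over the 24 arrays were Bach2 (r = 0.962), Sppl3 (0.961), Cadm1 (0.948), Tigd3 (0.948) and Siglecf (0.946). Bach2 is a transcriptional repressor and Cadm1 a cell adhesion molecule of axons and Schwann cells. The likeness describes these arrays and carries no test.

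**Figure D4:**
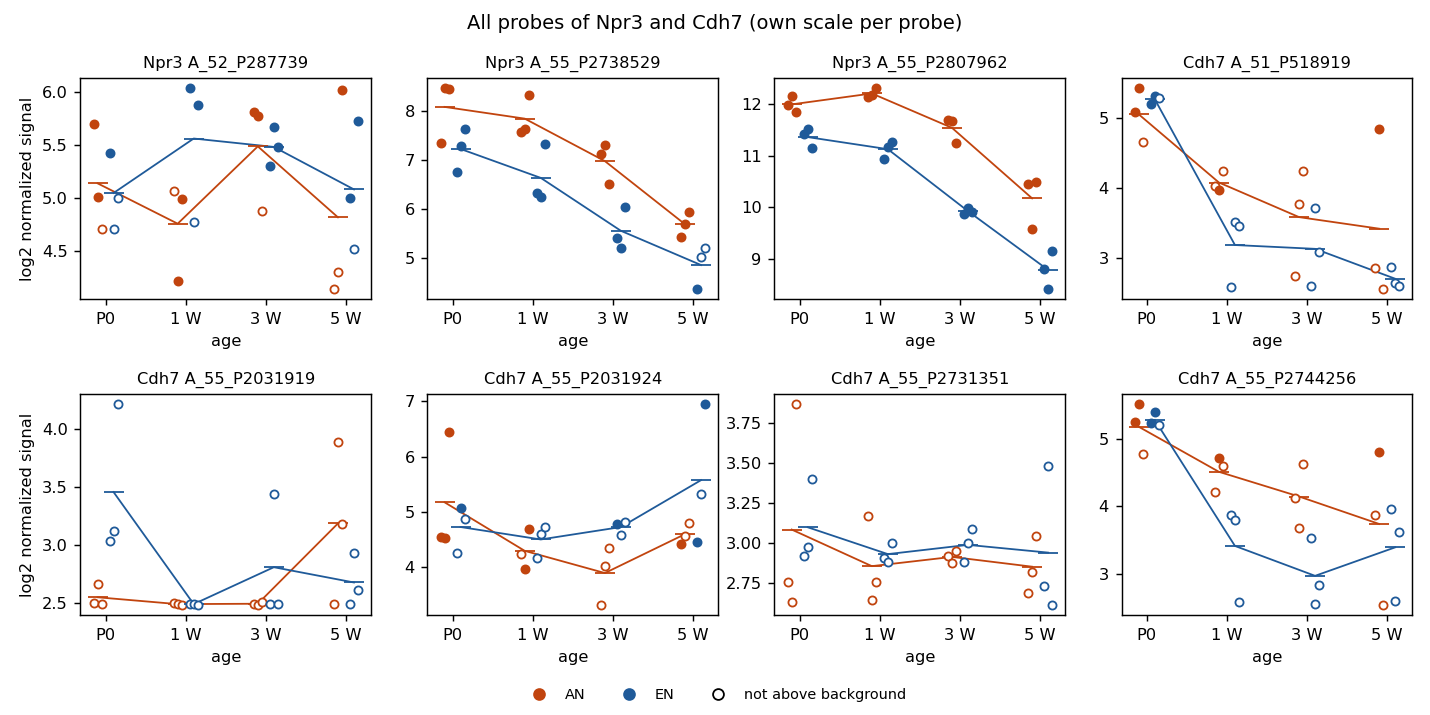
Log2 normalized signal of the 3 Npr3 probes and the 5 Cdh7 probes on every array against age, drawn as for the 5 genes above, each panel on its own scale. A pair of Npr3 probes decline together with AN above EN, 1 stays near 5, and among the Cdh7 probes A_51_P518919 and A_55_P2744256 decline from about 5 at P0.

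Wif1 fell after birth in both roots, and no difference between the roots was called. Its probe lies at chr10:120537079-120537138 on the plus strand of mm9 and was above background on all 24 arrays. At P0 the signals were 9.42, 10.16 and 9.72 in AN and 9.25, 9.14 and 9.66 in EN. At 1 W they were 7.90, 8.11 and 8.16 in AN and 7.33, 7.89 and 8.37 in EN. At 3 W they were 6.63, 7.25 and 6.43 against 7.19, 7.31 and 6.88. The roots overlapped at all of these ages, and also at 5 W, with 7.41, 6.48 and 6.73 in AN and 6.79, 6.66 and 7.98 in EN.

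Wif1 was lower at 1 W than at P0 by 1.71 in AN (log2 -1.71, 3.28-fold, adjusted p = 0.00124 in limma's fit) and by 1.49 in EN (log2 -1.49, 2.80-fold, adjusted p = 0.0031). At 5 W the differences from P0 were -2.89 in AN (7.43-fold lower, adjusted p = 9.24e-07) and -2.20 in EN (4.61-fold lower, adjusted p = 2.19e-05). Within slides that held both P0 and 1 W arrays the change was -1.52 and -1.78 in AN and -1.92 and -1.03 in EN. From 1 W to 5 W the change was -1.18 in AN (adjusted p = 0.0116 in limma's fit), which became -0.99 (adjusted p = 0.0554) without AN replicate 2 of 5 W. It was -0.84 with normexp and -0.95 with array quality weights, both under 2-fold and so not called. In EN the change from 1 W to 5 W was -0.72 (95% interval -1.43 to -0.01), which missed the threshold. Without EN replicate 3 of 5 W the EN value was -1.14 and was called. The AN-EN differences were 0.42, 0.19, -0.36 and -0.27 from P0 to 5 W, with 95% intervals that all held 0, of which the P0 one was -0.29 to 1.12. In the order of means, only P0 EN at 9.35 ± 0.27 (SD) and 1 W AN at 8.05 ± 0.14 differed as neighbours by more than the sum of their SDs.

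Of the 12 secreted Wnt antagonists listed, 9 were tested, Wif1 included, and 4 were called lower, Wif1 among them, and 3 higher at 5 W than at P0, the same counts in AN and EN. Over all probes 12.7% were called lower and 15.2% higher in AN, and 14.5% and 15.5% in EN. Sfrp1 was lower by 2.26 in AN and 1.81 in EN (log2 -2.26 and -1.81). Sfrp2 was lower by 3.09 in AN (log2 -3.09) and at least 8.17-fold in EN, where it reached background. Dkk2 fell at least 12.6-fold in AN and at least 13.2-fold in EN. Sfrp5 rose by 2.87 in AN and 1.71 in EN, Frzb by 3.13 and 4.13, and Dkk3 by 1.24 and 1.62. Between the roots, Sfrp4 was 1.19 higher in AN at 1 W, Sfrp2 1.77 higher at 5 W, Frzb 1.04 lower at 1 W (log2 -1.04) and Dkk2 1.07 lower at 1 W and at 5 W (log2 -1.07). The median change to 5 W over the 9 was -0.86 in AN and -0.47 in EN.

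Of 10 genes known as Wnt targets, 5 were lower at 5 W than at P0 in AN, against 12.7% of all probes, and 3 in EN, against 14.5%, and none was higher, against 15.2% and 15.5%. Sp5 fell by 3.80 in AN and 3.05 in EN, Tcf7 by 2.49 and 2.11, and Lgr5 by 1.70 and 3.01. Axin2 fell by 1.06 and Nkd1 by 1.07 in AN. Lgr5, the R-spondin receptor, was also 2.16 and 2.18 higher in AN than in EN at 3 W and 5 W. The median over the 10 was -0.99 in AN and -0.46 in EN. The genes most like Wif1 were Fnbp1l (r = 0.953), Ccdc86 (0.95), Pigx (0.949), Emg1 (0.948) and Ppm1g (0.946), the last 2 serving ribosome assembly and protein dephosphorylation.

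**Figure D5:**
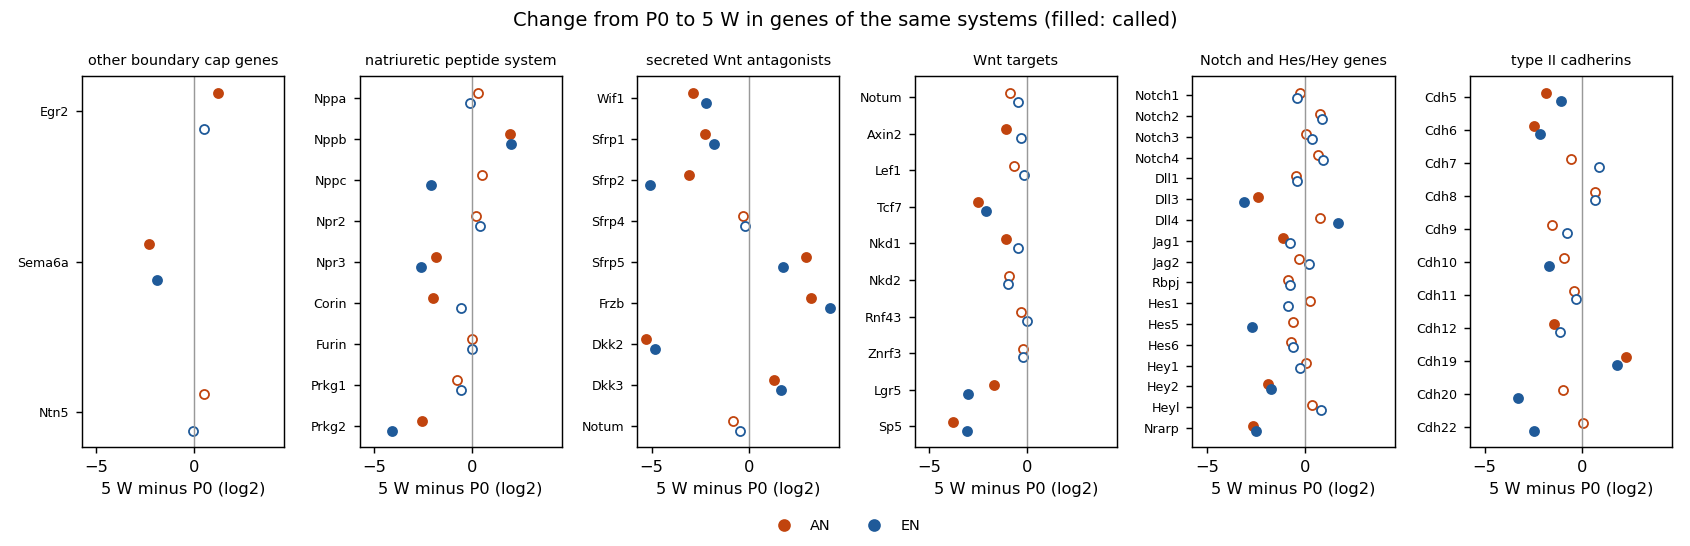
Log2 difference between 5 W and P0 in AN (orange) and EN (blue) for the tested genes of 6 lists related to the 5 genes, with filled points for called differences. Sfrp1, Sfrp2 and Dkk2 lie below 0 with Wif1 while Sfrp5, Frzb and Dkk3 lie above it, and Hey2 lies below 0 with Dll3 and Nrarp.

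Hey2 was higher in afferent fibres at 1 W and fell from P0 in both roots. Its probe lies at chr10:30552729-30552788 on the minus strand of mm9. At P0 the signals were 7.49, 7.89 and 8.24 in AN and 6.68, 6.36 and 7.16 in EN. At 1 W they were 6.90, 6.75 and 7.01 in AN and 4.16, 5.05 and 4.87 in EN, where only the second array was above background. AN and EN did not overlap at these ages. At 3 W they were 5.20, 4.95 and 7.05 in AN and 5.80, 4.33 and 4.74 in EN, and at 5 W 6.23, 6.16 and 5.59 in AN and 5.64, 5.67 and 3.77 in EN. The AN value of 7.05 at 3 W is that of the array with the highest neuron marker level, a single array, and the part of neurons in the Hey2 signal was not tested.

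The difference of Hey2 between AN and EN was 1.14 at P0 on the log2 scale (95% interval 0.04 to 2.25, adjusted p = 0.645 in limma's fit) and 2.19 at 1 W (SE 0.53, adjusted p = 0.0219), higher in 3 of 3 pairs. Since 1 of the 3 EN arrays was above background at 1 W, and likewise at 3 W and at 5 W, the sizes of differences from these groups are uncertain. With normexp the 1 W difference was 0.89 (adjusted p = 0.0158 in limma's fit), a fold change under 2 and so not called. The 1 W call was lost without AN replicate 1 (adjusted p = 0.0748), AN replicate 2 (0.0575), AN replicate 3 (0.0864) or EN replicate 1 (0.129), with values of 1.92 to 2.37 over the 6 arrays left out in turn. It was 0.78 at 3 W, or 0.12 without AN replicate 3, and 0.96 at 5 W, neither called. From P0, Hey2 was lower in EN by 2.03 at 1 W (log2 -2.03, adjusted p = 0.00765) and by 1.70 at 5 W (log2 -1.70, adjusted p = 0.0108), and in AN by 1.88 at 5 W (log2 -1.88, adjusted p = 0.00589). The AN change of -0.99 at 1 W was not called. With normexp the EN changes were -0.81, -0.70 and -0.67 at 1 W, 3 W and 5 W, none called since each fold change was under 2, and the 5 W change in AN was -1.12 and called. Without EN replicate 3 the 5 W change in EN was -1.07 (adjusted p = 0.086). The 3 W values, -2.14 in AN and -1.77 in EN, were called but became -1.02 and -0.65 and were no longer called with the slide as a block; no slide held both P0 and 3 W arrays. Of its 8 means, P0 AN at 7.87 ± 0.37 (SD) and 1 W AN at 6.89 ± 0.13 were the only neighbours that differed by more than their SDs.

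All 17 genes of the Notch list were tested. At 1 W Dll3, Hes5 and Hey2 were higher in AN, by 1.89 for Dll3, a Delta-like gene, and by 2.54 for Hes5, a Notch-responsive repressor of glial progenitors. Notch signalling itself was not tested. Hes5 was still 2.29 and 2.49 higher in AN at 3 W and 5 W. From P0 to 5 W Dll3 fell by 2.40 in AN and 3.12 in EN and Nrarp, a feedback inhibitor of Notch, by 2.64 and 2.48. Jag1 fell by 1.09 in AN, Hes5 fell by 2.68 in EN, and Dll4, an endothelial ligand, rose by 1.69 in EN. Dll1 was at least 1.56-fold lower in EN at 1 W than at P0, and Heyl rose by 1.48 in EN by 1 W. Hey1, the closest relative of Hey2, differed from P0 to 5 W by 0.05 in AN and -0.24 in EN, neither called. The median change over the 17 was -0.30 in AN and -0.39 in EN. The genes most like Hey2 were Marchf11 (r = 0.893), Srgap3 (0.889), Actl6b (0.888), Cntn4 (0.884) and Pappa2 (0.879). Actl6b, a neuronal chromatin subunit, and Cntn4, an axonal adhesion protein, are used by neurons, but the likeness carries no test and no theme was tested over the list.

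Cdh7 could not be followed through its brightest probe. That probe, at chr1:112036022-112036081 on the plus strand of mm9, was above background on 10 of 24 arrays and passed the filter only through the P0 AN group. Its signals at P0 were 4.55, 4.53 and 6.44 in AN and 4.25, 5.06 and 4.87 in EN. At 1 W they were 4.24, 3.97 and 4.69 in AN and 4.17, 4.61 and 4.74 in EN. At 3 W they were 3.32, 4.02 and 4.35 in AN and 4.79, 4.58 and 4.82 in EN. At 5 W they were 4.43, 4.57 and 4.80 in AN and 4.45, 5.33 and 6.94 in EN. Single arrays, AN replicate 3 at P0 and EN replicate 3 at 5 W, stood above the others, and no neighbours in the order of means differed by more than their SDs. The AN-EN differences were 0.45, -0.21, -0.83 and -0.97 from P0 to 5 W and none was called, with a 95% interval at P0 of -0.63 to 1.52. No AN array at 3 W was above background, and the call of a fall from P0 in AN at that age is not read as a result, since the probe was tested through the P0 AN group alone. That fall was at least 1.38-fold, was not called with no filter on dim probes (adjusted p = 0.0679 in limma's fit), and had a log2 value of -0.64 without AN replicate 3 of P0.

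The 2 Cdh7 probes designed on the RefSeq transcript gave another course. A_51_P518919, at chr1:112035318-112035377, read 5.09, 5.43 and 4.66 in AN and 5.20, 5.32 and 5.29 in EN at P0. At 1 W it read 4.03, 3.97 and 4.24 in AN and 2.59, 3.52 and 3.46 in EN. A_55_P2744256, at chr1:112035250-112035309, had means of 5.18 ± 0.37 (SD) in AN and 5.28 ± 0.10 in EN at P0 and of 4.51 ± 0.26 and 3.41 ± 0.72 at 1 W. The pair correlated at r = 0.8 with each other and at -0.0238 and -0.099 with the brightest probe. Each was above background on 6 arrays, 4 of them at P0, and neither was tested, since replicate 3 was not above background in either root at P0. The remaining 2 probes were above background on no array.

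Of 13 type II cadherins 11 were tested. At 3 W and 5 W Cdh10, Cdh20 and Cdh22 were higher in AN, by 1.05, 1.98 and 1.68 at 3 W and by 1.55, 2.48 and 2.43 at 5 W. Cdh6 fell by 2.48 in AN and 2.16 in EN from P0 to 5 W, and Cdh5, a cadherin of endothelium, by 1.86 and 1.08. Cdh12 fell by 1.45 in AN. In EN the changes of Cdh10, Cdh20 and Cdh22 were -1.71, -3.30 and -2.47, all called. Cdh19, a cadherin of Schwann cell precursors, rose by 2.25 in AN and 1.78 in EN. The median change was -0.95 in AN and -1.08 in EN. The probes most like that of Cdh7 were those of 4933433G19Rik (r = 0.773), Gm28651 (0.758), Pqbp1 (0.745) and Maml2 (0.74).

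The counts of genes called between the roots follow by age. At P0 0 of the 4 tested, Prss56 left out, were called higher in AN, against 0.0714% of all probes. At an unadjusted p below 0.05 and a fold over 2, Hey2 alone would be. Cdh7 is among the 4, though its probe was tested through the P0 AN group alone. At 1 W 3 of 5 were called (Prss56, Npr3 and Hey2), against 2.41% of all probes. At 3 W and at 5 W 1 of 5, Npr3, was called, against 2.24% and 2.51%. None was called lower in AN at any age. Without EN replicate 1 of 1 W the count at 1 W was 1, Prss56, since both Npr3 and Hey2 lost their call. P0 cannot be set beside the other ages, since Prss56 was not tested there, and the genes were picked with such results known, so the counts describe them only.

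Of the 4 genes tested against P0, 2 were lower in EN at 1 W (Wif1 and Hey2), against 5.65% of probes, and 1 in AN (Wif1), against 3.62%. Cdh7 is among the 4, though its probe was tested through the P0 AN group alone. At 3 W 3 were lower in EN (Npr3, Wif1 and Hey2), against 14.4%, and Wif1 and Hey2 in AN, the call of Cdh7 not being read, against 12.8%. The 3 W counts also compare slides, since no slide held both P0 and 3 W arrays, and Hey2 lost both calls with the slide as a block. At 5 W Npr3, Wif1 and Hey2 were lower in both roots, against 14.5% in EN and 12.7% in AN. From 1 W to 5 W, 3 of 5 were lower in AN (Prss56, Npr3 and Wif1), against 6.73%, and 1 of 5 in EN (Npr3), against 6.49%. Wif1 lost that AN call with normexp, with array quality weights and when a single 5 W array was left out. None of the genes was called higher than at P0 or than at 1 W in these comparisons.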

How the data were processed

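Each of the 24 arrays held 1 Cyanine-3 labelled root RNA, and groups came from the labels. The deposited scanner tables give spot intensity from Agilent Feature Extraction 10.7.1.1, background-subtracted by that software, and the authors added a table of log2 values, quantile normalized with GeneSpring per their methods. Spots marked as outliers were dropped, spots of a probe averaged, and log2 signals of 56605 gene probes quantile normalized. Testing was limited to 36398 probes that, in 1 group or more, were well above background on its 3 arrays. Each gene was read through its probe with the highest mean in the deposited table. Symbols came from RefSeq's GRCm38.p6 table.

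The 8 group means were fitted with limma 3.58.1 in R 4.3.3 (no covariate, 16 residual degrees of freedom), with Benjamini-Hochberg adjustment over all tested probes. The thresholds, an adjusted p of 0.05 and a fold change of 2, are those of the study's methods, which do not state adjustment. The fit was tested on simulated data. Where no array of a group was above background, a bound uses the higher of each dim array's detection limit (3.71 to 5.87 in log2) and its own value. The number of arrays limits precision.

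Replicate numbers were taken to pair AN and EN: the deviations of same-numbered arrays from their group means correlated in all 12 pairs (0.107 to 0.665), and each pair shared a slide. Slide and scan coincided. The genes and lists were chosen with earlier results of these data known. Genes named are the 5 members, list genes called in a comparison, Egr2, Sema6a and Ntn5, and the 5 probes of other genes most correlated with each member (10 for Prss56), of which 1 is not reported here. Npr1, Npr2, Hey1, Scn9a and Mnx1 are named besides, chosen after their values were seen. Gene groups were the boundary cap, natriuretic, Wnt, Notch and cadherin lists and the 11 marker lists of cell types. Alternatives were the deposited table, another background correction, scaling or filter, blocks, array weights, fewer arrays and other probes.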

Additional observations from a re-analysis of the deposited data

How the results depend on the processing

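Of 1252 alternative values of the single genes, 1176 kept their direction and call, 30 changed sign without being called in either fit, 27 lost the call, 14 gained it and 5 changed the sign of a called value, all 5 through the upstream Npr3 probe, whose values were -0.80 for AN against EN at 1 W, -0.26 at 5 W, 0.43 and 0.034 for 3 W and 5 W against P0 in EN, and 0.06 for 5 W against 1 W in AN. That probe is dim, and the cause was not tested. Leaving out each array in turn gave 0 to 0 genes higher in AN at P0, 1 to 3 at 1 W, 1 to 1 at 3 W and at 5 W; 2 to 2, 3 to 3 and 2 to 3 lower than P0 in EN at 1 W, 3 W and 5 W; 1 to 1, 2 to 3 (Cdh7 counted) and 3 to 3 in AN; and from 1 W to 5 W 1 to 2 in EN and 2 to 3 in AN. The count of 1 at 1 W was without EN replicate 1, and that of 2 from 1 W to 5 W in EN without EN replicate 3 of 5 W. Without adjustment 1 gene was higher in AN at P0. With probes above background on all 24 arrays only 2 genes entered, and 1 was higher in AN at 1 W, 1 lower in EN at 1 W and 1 lower in AN at 3 W. With only the arrays compared, 0 were higher in AN at 5 W. Normexp left 1 lower in EN at 1 W, and Hey2 lost its 4 calls that involve EN. Cdh7 lost its call at 3 W in AN with normexp. Wif1 lost its call from 1 W to 5 W in AN with normexp and with array quality weights. With the slide as a block 2 were lower from 1 W to 5 W in EN. With the replicate block, the AN-EN difference of Prss56 at 5 W minus 1 W (-3.39) was called, and so was Cdh7 from 1 W to 5 W in EN (1.07); the block changed no other call. Arrays at their detection limit give no fold, which limits Prss56 after P0, Hey2 in EN after P0, and Cdh7.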
